A study of Homo sapiens with 8 samples.

Results

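The genes described here are 45 human genes of DNA damage repair, MRE11 among them, picked by their function and read from the RNA-sequencing of renal CAKI1 tumor cells with and without iron-loaded lipocalin-2. They were found by an equal gene symbol in the deposited table of 16782 genes. This gave 44 genes, and the remaining one, PMS2, shares its row with the symbol of a second locus and was taken by its Ensembl identifier. PMS2 has near-identical copies in the genome, so its reads are uncertain. Of the 45 genes, 44 passed the filter on low values, and RAD54L did not.

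CAKI1 is an established human renal carcinoma cell line. All 8 samples were serum starved for 24 h. After that, 4 samples stayed without lipocalin-2 (control), and 4 received 5 µg/ml of the iron-loaded, holo form of lipocalin-2 (hLcn-2), a secreted iron transporter, for 24 h. The data therefore hold 1 cell line at 1 dose and 1 time point, and the sources used here do not say whether same-group samples came from separate cultures, so p-values measure the spread between these samples, which may be technical. In each group the samples carry the numbers 1 to 4, and same-numbered samples are called a pair below.

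Libraries were read from the 3′ end of the mRNA with unique molecular identifiers, and held between 1501563 (control 4) and 13953090 reads (control 1). All levels below are the authors' normalized counts, that is, CPM of a scaled library size, and 1 read was worth between 0.0704 and 0.658 normalized counts. Differences are hLcn-2 minus control on the log2(normalized count + 1) scale, which understates the change of low genes. Of 7 renal epithelial markers, 6 were measured in every sample, with PAX8 between 201 and 245 and EPCAM between 19.5 and 27.8 normalized counts. Of 7 markers of immune, endothelial, blood and liver cells, only ALB was found among the gene symbols, with at most 1.48 normalized counts. In such bulk samples, fewer cells with an mRNA and less of this mRNA per cell cannot be told apart.

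DNA damage repair is divided into branches by the kind of lesion. Double-strand breaks are sensed by the MRE11-RAD50-NBN complex, signalled by the kinases ATM and ATR, and then either copied back from the sister chromatid by homologous recombination or joined end to end. The Fanconi pathway unhooks crosslinks between strands, mismatch repair corrects replication errors, nucleotide excision repair removes bulky lesions such as those of UV light, and PARP1 and XRCC1 act at single-strand breaks. Homologous recombination and the Fanconi pathway work mainly in S and G2 phase, and many of their genes are transcribed under E2F factors together with the genes of DNA replication.

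To show the control regions of these genes, promoters were read from RefSeq (GRCh38.p14), from 250 bases before to 50 bases after the gene start. Such windows, 60 in all, were at hand for 41 of the 45 genes. Some genes thus had several windows and more chances of a match. The letters GGCGGGAA on either strand are a sequence of the E2F kind. They were in any window of 11 of these 41 genes (26.8%) and of 3.79% of all 27305 genes. Shown are 6 of the 11, with 10 bases on each side and the matched letters in capitals. XRCC2, MSH6 and XPC were chosen because their differences are described in detail below, and BLM, BRIP1 and FANCD2 stand for recombination and the Fanconi pathway.
XRCC2, chr7:152676104-152676131, minus strand: tggcgttggtGGCGGGAAagttgagtct
MSH6, chr2:47783139-47783166, plus strand: ccccccagatTTCCCGCCagcaggagcc
XPC, chr3:14178824-14178851, minus strand: cctgcgccctTTCCCGCCtctcgcgaga
BLM, chr15:90717261-90717288, plus strand: agcctgagggGGCGGGAAcagatgtccg
BRIP1, chr17:61863510-61863537, minus strand: gggggcgggaGGCGGGAAttcgtctcgg
FANCD2, chr3:10026424-10026451, plus strand: cgtcgggcctGGCGGGAAagtcgaaaac

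Of the 11 genes with these letters, 10 were tested, and all 10 were lower after hLcn-2 (median log2 difference -0.20). Of the 30 tested genes whose windows lacked them, 21 were lower (median -0.08). Of all tested genes, 49.8% were lower. These counts are a description, since 5 motifs were searched and all were picked with the results known. Among the other motifs, TTTGGCGC was in windows of 2 of the 41 genes (4.88%, against 0.795% of all genes). TTTCGCGC was also in 2 (against 0.63%), TTTGAA in 6 (14.6%, against 18.2%) and CCAAT in 23 (56.1%, against 39.7%). Each was read on both strands. MSH3 held both TTTGGCGC and TTTCGCGC and was higher (log2 difference 0.04). XRCC6, with TTTGGCGC, and EXO1, with TTTCGCGC, were lower (-0.03 and -0.40). Directions were not summarised for TTTGAA and CCAAT, and a part of E2F factors in these differences was not tested. MRE11 held 2 CCAAT boxes, at 127 and 62 bases before its RefSeq start. These are in capitals in the 250 bases upstream of that start, shown because MRE11 gives the group its name. In GENCODE the gene starts further upstream, at 94493885, so the last of these bases lie within it.
MRE11, chr11:94493845-94494094, minus strand: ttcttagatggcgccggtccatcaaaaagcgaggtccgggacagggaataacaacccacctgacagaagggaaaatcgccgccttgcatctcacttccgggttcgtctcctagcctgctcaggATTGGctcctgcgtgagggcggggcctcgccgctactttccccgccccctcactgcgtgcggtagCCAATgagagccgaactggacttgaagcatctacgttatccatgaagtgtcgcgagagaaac

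The repair genes as a group were slightly lower after hLcn-2. Of 44 tested genes, 33 (75%) were lower and 11 higher, with a median log2 difference of -0.09, whereas 49.8% of all 15593 tested genes were lower, with a median of 0.00083. The range ran from -0.47 for XRCC2 to 0.29 for PALB2. In the pairs, the median of the 44 genes was -0.20, -0.13, -0.09 and -0.11 for pairs 1 to 4. Leaving out control 2 alone brought the median to 0.0017 with 21 genes lower, and leaving out hLcn-2 3 alone brought it to -0.02 with 24 lower. Leaving out both samples of a pair kept it between -0.13 and -0.09 with 31 to 35 genes lower.

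**Figure D1:**
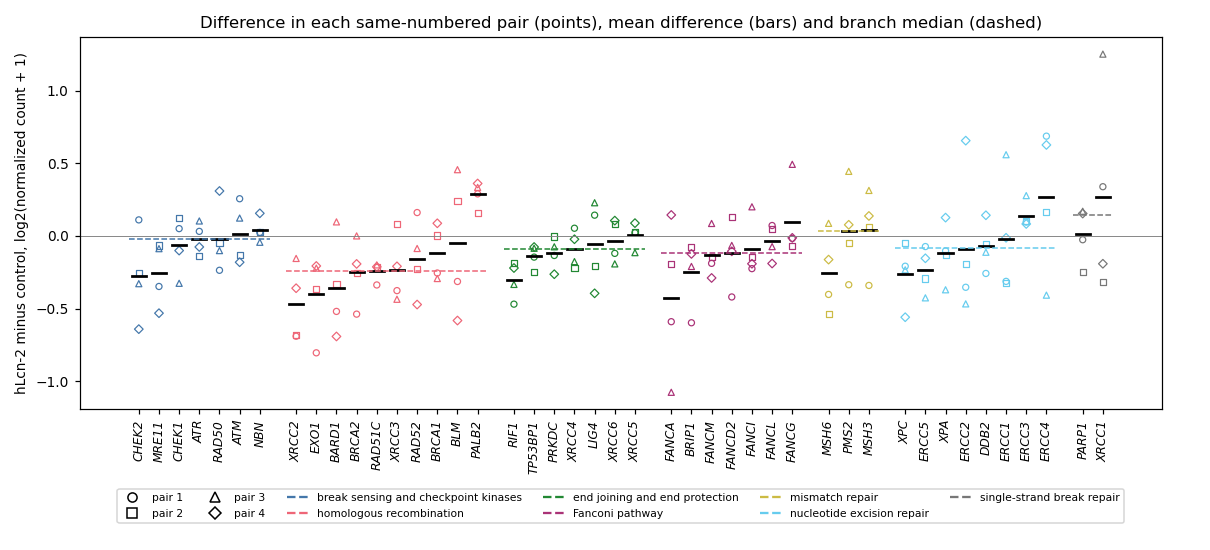
Each column is 1 of the 44 tested repair genes, sorted by branch and by mean difference. The y axis gives hLcn-2 minus control on the log2(normalized count + 1) scale, with 1 open symbol per same-numbered pair, a black bar at the mean of the 4 pairs and a dashed line at the median of the branch. The dashed line of homologous recombination sits at -0.24, and PALB2 is the single gene of that branch with a bar above 0.

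Against the spread between samples, few of these differences stood out. With limma on all 8 samples no repair gene was called at an adjusted p under 0.05, where 0% of all genes were called. No repair gene had an unadjusted p of 0.05 or less in this fit, where 355 of all 15593 tested genes did. With pair as a block in limma, again no repair gene was called, against 0.282% of all genes, but 10 had an unadjusted p of 0.05 or less. Among these 10, MRE11, BRCA2, BARD1, XRCC2, EXO1, RIF1, MSH6, XPC and ERCC5 were lower (9 genes, where 5.53% of all genes met this), and PALB2 was higher (1 gene, where 6.65% did). With edgeR on the recovered reads and the same block, 1 repair gene passed, XRCC2, against 1.49% of all genes in both directions and 0.372% that passed as lower. DESeq2 with the block called none of the 44, against 1.11% of all genes, and gave 5 an unadjusted p of 0.05 or less, as 7.38% of all genes had.

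Counted by pairs, MRE11, RAD51C, XRCC2, EXO1, PRKDC, TP53BP1, RIF1, BRIP1, XPC and ERCC5 were lower in 4 of 4 pairs (10 genes, where 10.9% of all genes were), and PALB2 and ERCC3 were higher in 4 of 4 (2 genes, where 9.93% were). For XPC alone, the 4 control and the 4 hLcn-2 values did not overlap (1 gene lower, where 0.988% of all genes were lower without overlap). No repair gene was higher without overlap, as 0.891% of all genes were. Without pair 3, whose libraries stood apart (see the paragraph on the pairs), 17 of 44 were lower in the other 3 pairs (16.1% of all genes), 5 were higher in them (17.3%), and 8 had an unadjusted p of 0.05 or less in limma with the block (10.4%).

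MRE11, the nuclease that opens break ends for repair, was lower in all 4 pairs. Its gene lies at chr11:94415570-94493885 in GENCODE (GRCh38, minus strand). It was at 46.6, 49.1, 29.4 and 51.4 normalized counts in controls 1 to 4 and at 36.4, 46.9, 27.7 and 35.2 after hLcn-2 in the same order (means 44.1 ± 9.99 and 36.6 ± 7.92, SD, n = 4 each). The groups overlapped, with control 3 below 3 of the 4 hLcn-2 samples and hLcn-2 2 above control 1, and the distance within a pair ran from -0.53 in pair 4 to -0.07 in pair 2. The log2 difference was -0.26 (SE 0.21, 95% interval -0.72 to 0.20), with a limma adjusted p of 1, and the two-sided exact permutation test over 70 regroupings gave p = 0.314. With the block the interval was -0.50 to -0.01 and the unadjusted limma p 0.0399 (adjusted p 0.383). This unadjusted p lay between 0.0309 and 0.157 when each pair was left out. The paper, in contrast, lists MRE11 as higher after hLcn-2 among its differentially expressed genes. Why the directions differ was not tested.

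For the partners of MRE11 in the complex, no difference larger than the spread between samples was found. NBN, which recruits ATM to the complex, had the highest difference of the break sensing genes. It was at 90.7, 90.8, 76.9 and 78.4 in controls and at 92.2, 92.7, 74.5 and 87.4 after hLcn-2 (log2 difference 0.04, SE 0.13, limma adjusted p 1). RAD50, the ATPase that bridges the ends, was between 437 and 552 in controls and between 412 and 542 after hLcn-2, and overlaps other annotated exons on both strands. CHEK2, the kinase downstream of ATM, had the lowest difference of this branch but rested on few reads, between 3 and 54 per library. Its levels were 3.80, 4.05, 2.12 and 3.95 in controls and 4.19, 3.24, 1.48 and 2.17 after hLcn-2 (log2 difference -0.28, SE 0.29), and pair 1 went the other way. ATM, ATR and CHEK1, the other kinases, ranged between 58.5 and 85.1, 60.7 and 67.7, and 62.4 and 76.8 in controls. After hLcn-2 they ranged between 64.4 and 92.8, 58.1 and 66.2, and 50.9 and 83.8, respectively, so that the groups overlapped for each of them. The median of the 7 genes of this branch was -0.02, with 5 lower and 2 higher, and it was 0.0077 without control 2.

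**Figure D2:**
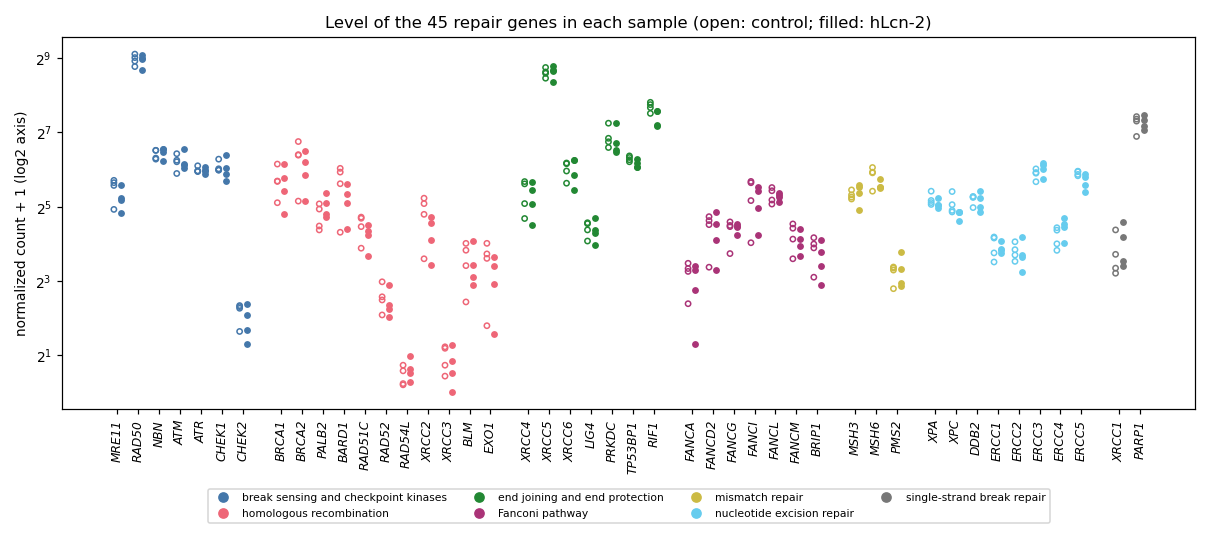
The y axis (log2 axis) gives the normalized count plus 1 of each of the 45 repair genes in each of the 8 samples, with open circles for control and filled circles for hLcn-2 samples, and colors for the branches. Open and filled circles overlap for every gene but XPC, where the highest hLcn-2 sample lies just under the lowest control.

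Homologous recombination had a median of -0.24 over 10 tested genes, of which 9 were lower. With all 8 samples this was the lowest median of the 7 branches. Without control 3 that of the Fanconi genes was lower (-0.4295 against -0.407). Without hLcn-2 3 that of end joining was lower (-0.0456 against -0.0014). So was that of nucleotide excision repair, which stayed at -0.0044 or below whichever samples were left out. The recombination median was below 0 in each pair (-0.36, -0.22, -0.12 and -0.21). It was -0.14 without control 2, -0.39 without hLcn-2 2 and -0.237 without both samples of pair 3. XRCC2, a factor of strand exchange, showed the lowest difference of all 44 genes. Its gene is at chr7:152644776-152676193 (minus strand). Controls 1 to 4 held 26.8, 36.5, 11.1 and 32.9 normalized counts, and hLcn-2 samples 16.2, 22.4, 9.87 and 25.4. Every hLcn-2 sample was below its own control, whereas the groups overlapped because both samples of pair 3 were low. XRCC2 fell with edgeR and the block (log2 fold change -0.58, adjusted p 0.0334), but not with limma and the block (log2 difference -0.47, SE 0.14, adjusted p 0.185) or DESeq2 and the block (adjusted p 0.0838). Its edgeR adjusted p was 0.0399 without pair 3 and 0.0390 without pair 4, but the call was lost without pair 1 (0.203) or pair 2 (0.328).

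BRCA2, which acts on resected ends, and BARD1, the binding partner of BRCA1, were lower in 3 of 4 pairs. BRCA2 was at 82.8, 107, 34.6 and 83.6 in controls and at 56.7, 89.5, 34.6 and 73.1 after hLcn-2. BARD1 was at 48.2, 60.1, 18.9 and 64.5 in controls and at 33.3, 47.6, 20.2 and 39.6 after hLcn-2. In both genes pair 3 was by far the lowest pair and showed no decrease. The log2 differences were -0.25 for BRCA2 and -0.36 for BARD1, with unadjusted p of 0.0315 and 0.0154 in limma with the block (adjusted p 0.355 and 0.282).

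EXO1, an exonuclease of long-range resection, was lower in all 4 pairs. It was at 12.3, 15.2, 2.47 and 11.2 in controls and at 6.59, 11.6, 1.98 and 9.57 after hLcn-2. Here too the pair 3 samples, with as few as 4 reads, were far below the rest. The log2 difference was -0.40 (unadjusted p 0.0481 and adjusted p 0.407 in limma with the block).

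PALB2 went the other way. This protein ties BRCA1 to BRCA2, and its mRNA was at 32.8, 29.6, 21.3 and 19.8 in controls and at 40.3, 33.3, 27.2 and 25.7 after hLcn-2. It was higher in every pair by a similar amount (0.29, 0.16, 0.33 and 0.36), although the groups overlapped. The log2 difference was 0.29 (SE 0.11 with the block, unadjusted p 0.0242, adjusted p 0.322 in limma), and the exact permutation test gave p = 0.257.

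The remaining recombination genes overlapped between groups. RAD51C, which acts in strand exchange too, was between 13.8 and 25.4 in controls and between 11.9 and 21.7 after hLcn-2 and was lower in 4 of 4 pairs. BRCA1, the ubiquitin ligase that favours resection, ran from 33.5 to 69.98 and from 27.2 to 70.2, and the BLM helicase from 4.41 to 15.1 and from 6.42 to 15.8. RAD52, which anneals single strands, was between 3.24 and 6.87 and between 3.04 and 6.42. XRCC3, a partner of RAD51C, rested on 0 to 19 reads per library, and the 0 reads of hLcn-2 3 allow a level of up to 1.48 normalized counts by counting error. RAD54L, a motor protein of strand invasion, had 1 to 7 reads per library and was not tested.

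**Figure D3:**
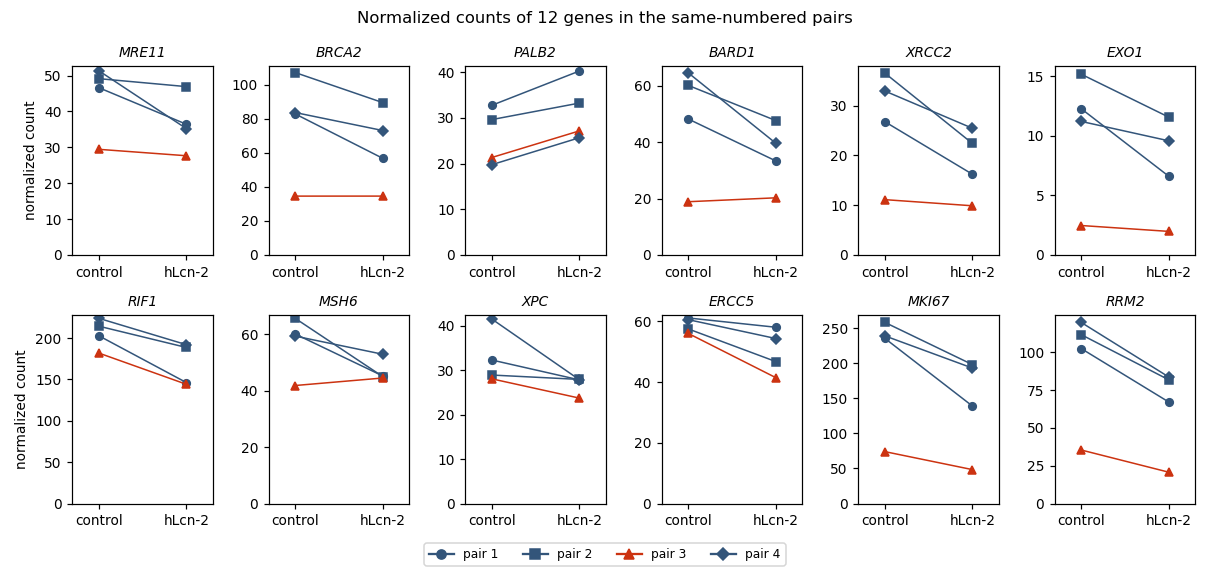
Each panel gives the normalized counts of 1 gene, with a line from the control to the hLcn-2 sample of each pair and pair 3 in red. Lines go down in all pairs for MRE11, XRCC2, EXO1, RIF1, XPC, ERCC5 and the proliferation genes MKI67 and RRM2, and up in all pairs for PALB2. Pair 3 lies lowest in both groups for BRCA2, BARD1, XRCC2, EXO1, MKI67 and RRM2.

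End joining genes differed little, whereas RIF1 stood at the low end. RIF1 holds off resection at break ends together with TP53BP1, and its gene is at chr2:151409883-151508013 (plus strand). Its mRNA was at 203, 214, 182 and 224 normalized counts in controls and at 146, 189, 144 and 192 after hLcn-2. Only control 3 reached into the range of the hLcn-2 samples. The log2 difference was -0.30 (SE 0.14 without and 0.08 with the block), with an exact permutation p of 0.0857. In limma with the block RIF1 had the smallest unadjusted p of the 44 genes (0.00217, adjusted p 0.139), and edgeR with the block gave an adjusted p of 0.0856. With 292 to 2880 reads per library it was also among the better counted of the genes named here.

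TP53BP1, the partner of RIF1, was lower in 4 of 4 pairs too, from 73.1 to 81.7 in controls and from 66.002 to 77.4 after hLcn-2. At the high end was XRCC5, a Ku subunit that caps the ends, with 395, 430, 352 and 386 in controls and 402, 438, 325 and 410 after hLcn-2 (log2 difference 0.01, 95% interval -0.28 to 0.29). The second Ku subunit, XRCC6, was between 48.7 and 71.4 in controls and between 42.5 and 75.9 after hLcn-2. PRKDC, the kinase that Ku recruits, was lower in 4 of 4 pairs, from 95.7 to 151 and from 88.7 to 151. The ligase LIG4 and its partner XRCC4 ran from 15.9 to 22.7 and 24.7 to 50.2 in controls and from 14.8 to 24.8 and 21.7 to 49.9 after hLcn-2. The branch median was -0.09 with 6 of 7 genes lower, and it was 0.0111 without control 2.

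In the Fanconi pathway 6 of 7 genes were lower, with a median of -0.12. None reached an unadjusted p of 0.05 in limma with the block, where 1900 of all 15593 tested genes did. The median was 0.0294 without hLcn-2 3, -0.0119 without control 2, -0.43 without control 3, -0.255 without hLcn-2 2 and -0.186 without both samples of pair 3. FANCA, of the core complex, was lowest, with 9.09, 10.1, 4.23 and 8.56 in controls and 5.70, 8.73, 1.48 and 9.57 after hLcn-2. Pair 4 went up, and hLcn-2 3 held only 3 reads. The log2 difference of FANCA was -0.43 (SE 0.43, limma adjusted p 1), and its last exon overlaps that of ZNF276 on the other strand. FANCG, also of the core complex, was highest in the branch, with 21.6, 23.1, 12.3 and 21.1 in controls and 21.3, 22.0, 17.8 and 20.9 after hLcn-2. Only pair 3 was higher, by 0.49, and the log2 difference of FANCG was 0.10 (SE 0.21). The last exon of FANCG overlaps another annotated gene on the same strand, so its reads may be shared. FANCD2 and FANCI, which the core complex marks with ubiquitin, ranged between 9.34 and 25.6 and between 15.3 and 50.3 in controls. After hLcn-2 they ranged between 8.89 and 28.03 and between 17.8 and 45.5. FANCL, the ubiquitin ligase itself, was between 32.6 and 44.8 in controls and between 33.8 and 40.0 after hLcn-2. FANCM, which docks the core complex on DNA, ran from 11.1 to 22.2 and from 11.9 to 20.004, and the BRIP1 helicase, lower in 4 of 4 pairs, from 7.58 to 16.95 and from 6.42 to 16.1.

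In mismatch repair the 3 genes differed in direction, with a median of 0.03 that was -0.103 without both samples of pair 3. MSH6, which recognises single mismatches, was at 60.0, 65.6, 41.8 and 59.3 in controls and at 45.2, 44.9, 44.4 and 52.8 after hLcn-2. All pairs but pair 3 were lower. The log2 difference of MSH6 was -0.25 (SE 0.11, unadjusted p 0.0443 and adjusted p 0.399 in limma with the block), and the gene overlaps FBXO11 on the other strand. MSH3, which recognises longer loops, was at 37.3, 38.9, 36.0 and 42.8 in controls and at 29.2, 40.7, 44.9 and 47.2 after hLcn-2 (log2 difference 0.04, SE 0.17). PMS2, which nicks the faulty strand, ran from 5.93 to 9.38 in controls and from 6.31 to 12.8 after hLcn-2.

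Nucleotide excision repair showed lower XPC and ERCC5 beside higher ERCC4 values. XPC, the sensor of helix distortion, was at 32.3, 28.9, 28.03 and 41.5 in controls and at 27.8, 27.9, 23.7 and 27.8 after hLcn-2. All hLcn-2 samples were thus below all controls, by no more than the gap between 27.89 and 28.03. The exact permutation test gave p = 0.0286, the smallest value that 4 against 4 samples allow, while the log2 difference of -0.26 (SE 0.17) had a limma adjusted p of 1. With the block, the unadjusted limma p of XPC was 0.0483 (adjusted p 0.407). Its last exon overlaps the antisense transcript XPC-AS1, and without counting by strand these reads cannot be told apart.

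ERCC5, the nuclease that cuts on one side of the lesion, was at 61.1, 57.5, 56.1 and 60.6 in controls and at 58.1, 46.8, 41.5 and 54.4 after hLcn-2. It was lower in 4 of 4 pairs, and only hLcn-2 1 lay within the range of the controls. The log2 difference of ERCC5 was -0.24 (SE 0.10, unadjusted p 0.0323 and adjusted p 0.357 in limma with the block), and its reads may be shared with the read-through gene BIVM-ERCC5. ERCC4, which cuts on the other side together with ERCC1, was at 15.0, 19.7, 20.6 and 13.2 in controls and at 24.8, 22.1, 15.3 and 20.9 after hLcn-2. It was higher in pairs 1, 2 and 4 and lower in pair 3 (log2 difference 0.27, SE 0.21, limma adjusted p 1).

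The other excision repair genes overlapped between groups. ERCC1 was between 10.4 and 17.2 in controls and between 12.4 and 15.8 after hLcn-2. ERCC2 and ERCC3, the helicases of TFIIH that open the helix, ran from 10.5 to 15.6 and 50.1 to 63.9 in controls and from 8.39 to 17.2 and 53.1 to 71.6 after hLcn-2, and ERCC3 was higher in 4 of 4 pairs. XPA, which positions the nucleases, and DDB2, the sensor of UV lesions, ran from 32.4 to 41.8 and 30.5 to 37.7 in controls and from 30.1 to 36.8 and 28.1 to 41.5 after hLcn-2. The median of the 8 genes was -0.08, with 6 lower. It was -0.171 without hLcn-2 4, -0.0459 without pair 3 and -0.0044 without pair 1.

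At single-strand breaks, PARP1, which senses the nick, was at 163, 171, 118 and 157 in controls and at 160, 144, 133 and 175 after hLcn-2 (log2 difference 0.01, 95% interval -0.31 to 0.34). XRCC1, the scaffold that it recruits, was at 8.24, 12.2, 9.17 and 19.8 in controls and at 10.7, 9.58, 23.2 and 17.2 after hLcn-2. The pairs of XRCC1 split in direction, with pair 3 higher by 1.25, and the log2 difference was 0.27 (SE 0.32, limma adjusted p 1).

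Pair 3 stood apart from the other pairs in the level of several branches, in control and hLcn-2 samples alike. The control 3 level of the 10 tested recombination genes lay at a median of -1.03 on the log2 scale from the mean of the other controls, and that of hLcn-2 3 at -0.91 from the other hLcn-2 samples. For the Fanconi genes these values were -0.92 and -0.86. In contrast, nucleotide excision repair genes were at -0.10 and -0.28, and all tested genes at 0.02 and -0.05. In control 3 and hLcn-2 3 alike, 8 of the 10 recombination genes and 6 of the 7 Fanconi genes were below all other samples of their group.

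Proliferation genes were low in pair 3 as well. All 20 genes of a list of cell cycle and replication genes, among them MKI67, TOP2A and the MCM helicase genes, were lowest in pair 3 in both groups, with a median of -1.35 in control 3 and -1.42 in hLcn-2 3 from the other samples. After hLcn-2, 17 of the 20 were lower, where 49.8% of all genes were, with a median log2 difference of -0.22. Of the 20, 13 were lower in 4 of 4 pairs, where 10.9% of all genes were. MKI67, a marker of cycling cells, was at 235, 258, 74.0 and 239 in controls and at 139, 198, 48.4 and 193 after hLcn-2. RRM2, a subunit of ribonucleotide reductase, was at 102, 112, 35.4 and 120 in controls and at 67.2, 81.9, 20.7 and 83.7 after hLcn-2. Both fell with limma and the block (log2 differences -0.51 and -0.58, adjusted p 0.0373 and 0.0317). They were the 2 genes of this list that were called, where 0.282% of all genes were. Without the intensity trend both calls were lost (adjusted p 0.443). Leaving out 1 library moved MKI67 between -0.94 (without control 3) and -0.05 (without hLcn-2 3), and RRM2 between -0.98 and -0.11 for the same libraries. Both calls of limma held without pair 4 but not without pair 1, 2 or 3, where the adjusted p ran from 0.0795 to 0.172. With edgeR and the block, RRM2 was called whichever pair was left out, and MKI67 in all cases but without pair 1 (0.0700). The pair medians of the proliferation genes were -0.39, -0.19, -0.28 and -0.24 for pairs 1 to 4. Those of the recombination genes were -0.36, -0.22, -0.12 and -0.21. What part the proliferation genes have in the lower recombination and Fanconi values was not tested.

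**Figure D4:**
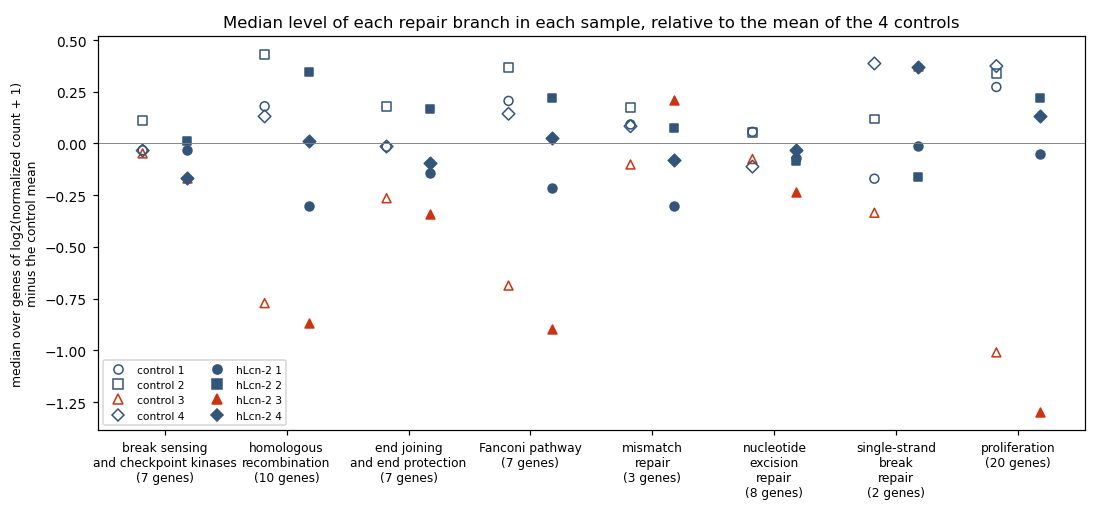
For each branch and for the 20 proliferation genes, the y axis gives the median over genes of log2(normalized count + 1) minus the mean of the 4 controls, with 1 symbol per sample (open for control, filled for hLcn-2, triangles in red for pair 3). Both pair 3 samples lie far below the rest for homologous recombination, the Fanconi pathway and proliferation, and close to it for nucleotide excision repair.

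Other genes of the same pathways were taken from a longer list. Of 107 further genes of these pathways, 101 were tested, with 55 lower and 46 higher and a median of -0.01. Of all tested genes, 49.8% were lower. None of the 101 was called by limma with the block, where 0.282% of all genes were. edgeR with the block called 4 of them, where it called 1.49% of all genes. CLSPN, the adaptor between ATR and CHEK1, fell by 0.70 on the log2 scale (edgeR adjusted p 0.00792), from 47.0, 56.3, 14.8 and 53.3 in controls to 22.7, 39.4, 7.405 and 41.3 after hLcn-2. FEN1, the flap nuclease of replication and base excision repair, fell by 0.45 (adjusted p 0.0331), from 79.9, 80.3, 35.6 and 90.2 to 62.7, 64.0, 24.2 and 54.8. For both, pair 3 was again lowest in each group. The edgeR call of CLSPN was lost without pair 1 (adjusted p 0.0945), and that of FEN1 whichever pair was left out (0.0610 to 0.119).

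The 2 genes of this list that edgeR with the block called as higher both code for subunits of TFIIH. No other TFIIH gene listed here was called. The log2 differences of GTF2H1, GTF2H5, MNAT1, CDK7 and CCNH were 0.16, 0.18, 0.0055, 0.18 and 0.18. Those of ERCC2 and ERCC3 were -0.09 and 0.14. GTF2H3 rose by 0.50 (edgeR with the block, adjusted p 0.0193), from 39.9, 49.5, 36.8 and 31.0 in controls to 61.5, 70.01, 49.9 and 35.7 after hLcn-2. GTF2H2, which has near-identical copies and is therefore uncertain, rose by 0.65 (adjusted p 0.0286), from 25.4, 34.4, 10.6 and 13.2 to 53.2, 43.8, 11.4 and 22.0. DESeq2 with the block called GTF2H3 (adjusted p 0.0392) but not GTF2H2 (adjusted p 0.0660). Of the 14 nucleotide excision genes tested in this longer list, GTF2H2 and GTF2H3 among them, 12 were higher, with a median log2 difference of 0.16. Of all tested genes, 49.8% were lower. The edgeR call of GTF2H3 was lost without pair 1, 2 or 3 (adjusted p 0.175, 0.194 and 0.0646), and that of GTF2H2 without pair 1, 2 or 4 (0.469, 0.0654 and 0.0542).

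Among 15 targets of p53, the transcription factor of the damage response, 10 were higher with a median of 0.05, whereas 49.8% of all genes were lower. MDM2, the ubiquitin ligase that p53 induces against itself, was at 130, 112, 140 and 113 in controls and at 167, 154, 145 and 151 after hLcn-2. Its groups did not overlap (log2 difference 0.32, limma adjusted p 1, exact permutation p = 0.0286), and with the block the adjusted p was 0.154. MDM2 was the 1 gene of the 15 that was higher without overlap, where 0.891% of all genes were.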

How the data were processed

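RNA of 8 CAKI1 samples was analysed, 4 control and 4 hLcn-2, grouped by their labels. QuantSeq 3′ reads carried molecular identifiers. The authors aligned them to GRCh38 with STAR and counted them with HTSeq. The deposited values are a scaled signal, normalized counts given as CPM of a library size adjusted by a factor between 0.970 and 1.06. Whole reads were recovered for 100% of 134256 values (within 0.01 reads). Whether reads were counted by strand is not given in the sources used here.

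Limma 3.58.1 (R 4.3.3, intensity trend) was run on log2(normalized count + 1) for the genes that reached 1 CPM in 2 or more samples, with Benjamini-Hochberg adjustment over 15593 genes. edgeR 4.0.16 and DESeq2 1.42.0 were run on recovered reads. The planned main test had no block. The labels number the samples but do not say what the number stands for. Same-numbered samples were then found to deviate together from their group means (correlation across genes 0.31 to 0.61, mean 0.50), and were treated as pairs. Differently numbered samples had correlations between -0.46 and 0.23, which taking deviations from group means draws downward. Exact permutation tests were two-sided.

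The repair genes, branches and lists were chosen with earlier results of these data known. Values in every sample are given for MRE11, genes called by limma or edgeR, genes without overlap or lower or higher in all pairs with an unadjusted p of 0.05 or less with the block, and the extremes of each branch. BRCA2 and BARD1 were added after their values were seen. Exon overlaps were taken from GENCODE 44 and promoters from RefSeq. The last exon overlapped another gene on the same strand in 3 of the 45 genes and on the other strand in 11. Besides those named above, the latter were BLM, ERCC1, ERCC2, FANCI, FANCL, RAD54L and TP53BP1. The fits were tested on simulated data. Alternatives were other pseudocounts, filters and scalings, thinned reads and left-out samples. Intervals of log2 differences were taken from limma and measure the spread between samples. Limits from few reads cover counting error only.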

Additional observations from a re-analysis of the deposited data

Results flagged for a closer look

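In 90 groups of 4 values (45 genes in 2 groups), 7 had 1 sample far from the other 3, where chance alone gives about 1 in 20 groups, or 4.5. Of the 7 samples, 3 belonged to pair 3. In control 3, CHEK2 was low at 2.12 normalized counts (12 reads) and DDB2 was low at 30.5, and in hLcn-2 3, XPC was low at 23.7. In control 2, ATR was high at 67.7 and CHEK1 was high at 76.8. MSH6 was high at 52.8 in hLcn-2 4, and PMS2 was low at 5.93 in control 4, from 9 reads.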

How the results depend on the processing

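With no block, limma called 0 genes, with 355 of 15593 at an unadjusted p of 0.05 or less, and edgeR and DESeq2 without a block also called 0. With the replicate block, limma called 44, and this count was 8 with a pseudocount of 0.1, 45 with 5, 85 with a filter on a mean of 10, 0 without the intensity trend, 4 with thinned reads and 0 to 58 without each pair. edgeR with the block called 233 and DESeq2 173. edgeR called 56 to 221 genes and 0 to 1 repair gene without each pair, an alternative chosen after seeing the data. Of the other repair genes, the block called 2 with a filter on a mean of 10, 4 with edgeR and 3 with DESeq2, and of the proliferation genes 2 by limma with and without the pseudocount of 5 or the filter, by edgeR and by DESeq2. The 10 repair genes at an unadjusted p of 0.05 or less with the block became 5 without the trend and 5 with DESeq2. The count was 4 with thinned reads and 3 to 9 without each pair. Of all genes, 1900 of 15593 met this with the block, 1567 without the trend and 1151 with DESeq2. With thinned reads 1432 of 15912 did, and without each pair 1333 to 2168 of 15593. Leaving out samples moved the median of the repair genes between -0.166 and 0.0017, of break sensing between -0.0836 and 0.0077 (-0.102 with thinned reads), of recombination between -0.407 and -0.0014, of end joining between -0.162 and 0.0111 (-0.165 with thinned reads) and of the Fanconi genes between -0.429 and 0.0294. Of 26 named genes, 17 kept their sign throughout. With thinned reads the log2 difference of NBN was -0.0352, of XRCC5 -0.0359, of XRCC1 -0.0255 and of PARP1 -0.0821, and with CPM of the column total that of XRCC5 was -0.0259 and of PARP1 -0.0186. Leaving out samples also turned the sign of 9 genes, with log2 differences between -1.37e-05 and 0.112 for NBN, -0.896 and 0.0392 for EXO1, -0.588 and 0.0119 for BRCA2, -0.0486 and 0.0949 for XRCC5, -0.0963 and 0.188 for FANCG, -0.671 and 0.0294 for FANCA, -0.0466 and 0.189 for MSH3, -0.0554 and 0.509 for XRCC1, -0.105 and 0.0995 for PARP1. The cause of these changes was not tested. Depth limits CHEK2, XRCC3, RAD54L, EXO1 and FANCA, whose libraries held 4 or fewer reads at the lowest.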
